A study of Homo sapiens with 12 samples.

Results

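The genes described here are 10 members of the YAP and TEAD pathway and its best known targets, taken by name from the 21207 genes of the table: YAP1, WWTR1, TEAD1, LATS2, AMOTL1, AMOTL2, AJUBA, CCN1, CCN2 and ANKRD1. All 10 were found, 2 of them (CCN1 and CCN2) under newer symbols than those of GENCODE 29, which calls them CYR61 and CTGF. A gene entered the tests if its value was more than 1 above the floor of the scale in at least 3 libraries, which 9 of the 10 were and ANKRD1 was not. RNA was sequenced from HEYA8, an established line of human ovarian cancer cells, that had spent 48 h in vehicle or in 1, 5 or 10 µM colforsin daropate. This drug is a forskolin derivative that dissolves in water, and forskolin switches on adenylyl cyclase, the enzyme that makes cyclic AMP (cAMP). Each of the 4 groups had 3 libraries, and all 12 came from cells kept in the same serum-containing medium. The labels state no genetic change in any group. Libraries of a group are biological replicates according to the series, and each carries a number in its title, 6, 8 or 11, that recurs in every group and is called the label number below. The labels do not say whether that number marks a passage, a day or something else, and since all libraries come from 1 cell line the p-values measure the spread between cultures of that line.

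YAP1 and its paralogue WWTR1, whose protein is called TAZ, are transcriptional coactivators that bind no DNA themselves and reach their genes through the TEAD factors. The Hippo kinases, which end in LATS1 and LATS2, phosphorylate both coactivators and keep them out of the nucleus, and protein kinase A, the kinase that cAMP activates, is known to act on this cascade. AMOTL1 and AMOTL2 bind YAP and TAZ, AJUBA binds LATS kinases, and transcripts of CCN1, CCN2 and ANKRD1 are the usual readouts of YAP and TAZ activity. Most of the control of YAP and TAZ is by phosphorylation and localisation of the proteins, which RNA libraries do not measure.

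TEAD factors bind DNA through a short core, GGAATG on one strand and CATTCC on the other, and the promoters that hold it are shown first because the target genes are read through it. Promoter windows of RefSeq (GRCh38.p14, from 250 bases before to 50 after each annotated start) were found for 8 of the 10 genes, in 11 windows. Windows of CCN1 and TEAD1 were not used here. The TEAD core occurred on either strand in 6 of the 11 windows, in 6 genes, and in 14% of all 35116 windows. CCN2 had 3 copies, 169, 104 and 95 bases before its start, and 45 of all windows (0.128%) held 3 or more. The region before the CCN2 start is chr6:131951374-131951622 (minus strand), printed 5′ to 3′ along the gene with the TEAD core in capitals.
CCN2 promoter: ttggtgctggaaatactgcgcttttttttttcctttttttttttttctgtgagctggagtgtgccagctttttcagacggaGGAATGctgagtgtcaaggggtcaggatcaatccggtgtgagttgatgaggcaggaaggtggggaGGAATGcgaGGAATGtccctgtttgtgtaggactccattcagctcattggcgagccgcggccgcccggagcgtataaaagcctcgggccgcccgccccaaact

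ANKRD1 had 2 copies of the core, and YAP1, AMOTL2, AJUBA and LATS2 had 1 each, while the windows of WWTR1 and AMOTL1 held none. The 6 copies are printed with 12 bases on each side, 5′ to 3′ along the gene and with the core in capitals, so that the flanks can be compared.
ANKRD1, 220 bases before the start (chr10:90921290-90921319, minus strand): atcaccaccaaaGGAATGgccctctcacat
ANKRD1, 128 bases before the start (chr10:90921198-90921227, minus strand): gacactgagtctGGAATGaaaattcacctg
YAP1, 162 bases before the start (chr11:102110273-102110302, plus strand): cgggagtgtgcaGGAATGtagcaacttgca
AMOTL2, 69 bases before the start (chr3:134374499-134374528, minus strand): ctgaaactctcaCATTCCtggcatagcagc
AJUBA, 59 bases before the start (chr14:22976884-22976913, minus strand): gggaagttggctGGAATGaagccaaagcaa
LATS2, 10 bases after the start (chr13:21061560-21061589, minus strand): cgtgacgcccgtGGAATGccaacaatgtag

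AMOTL2 was the 1 gene with the core on the other strand, so its capitals read CATTCC. All 30 bases printed for AMOTL2, for AJUBA and for the ANKRD1 copy at 128 bases lie in GENCODE 29 exons of these genes. They are before the RefSeq start of their window, but not outside the annotated transcripts. The core of the cAMP response element, TGACG or CGTCA, the short sequence bound by factors that protein kinase A activates, occurred in windows of WWTR1, LATS2 and AMOTL1, and in 24.6% of all windows. In LATS2 both kinds of core lay in the same window. No TEAD core overlapped a cAMP response element core in these windows, although the letters would allow it. AMOTL2, AJUBA and WWTR1 had 2 annotated starts each. In AMOTL2 and in AJUBA the TEAD core belonged to the start farther inside the gene. Their other window, at the 5′ end of the gene, held neither core. A match describes the letters of a window, not binding.

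**Figure D1:**
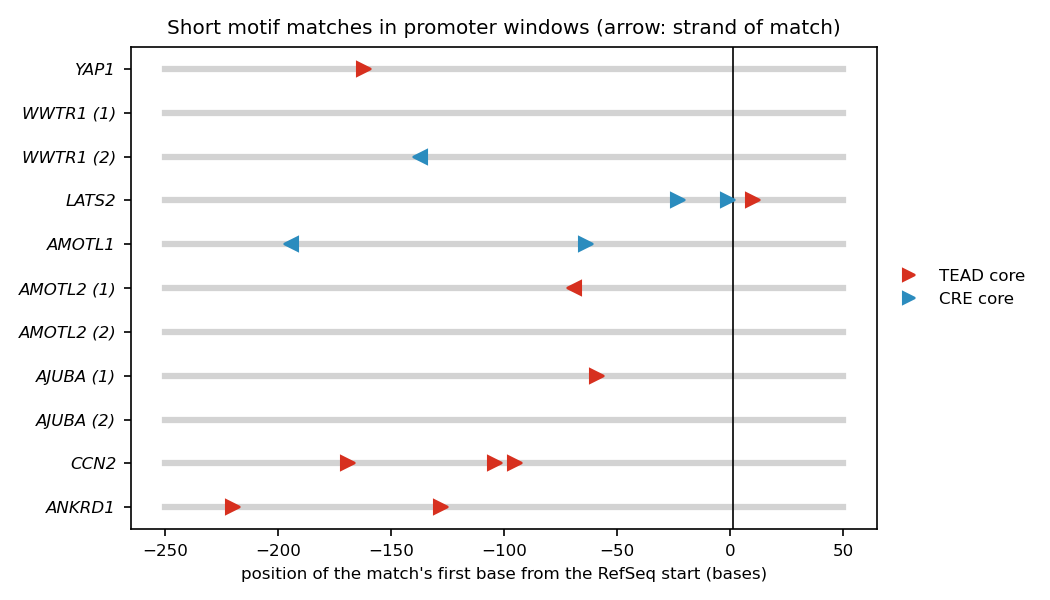
Position of each TEAD core (red) and each cAMP response element core (blue) in the 11 RefSeq promoter windows of 8 genes, in bases from the annotated start, with the arrow giving the strand of the match. CCN2 carries 3 TEAD cores and ANKRD1 2, while AMOTL1 and 1 of the 2 windows of WWTR1 hold only the cAMP response element core.

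Expression is given on the deposited variance-stabilised log2 scale, whose floor, the value of a gene without reads, is 4.86. Values from 10 up were deposited in steps of 0.1, so that a value may be off by 3.53% of its count from rounding alone. Vehicle library 6 had the least depth, 24.0 megareads on genes as recovered from single-read steps, against 31.2 to 48.7 in the others, and the median value was 8.21 to 8.29. The libraries expressed the epithelial or ovarian markers PAX8 (12.5 to 13.6), KRT7 (11.5 to 13.7), KRT8 (13.1 to 14.5) and KRT18 (13.6 to 14.9), with WT1 at 6.89 to 7.73 and VIM at 17 to 18.7, whereas EPCAM had 5 to 11 reads per library. Of the other cell types, leukocyte PTPRC had 0 to 13 reads and CD14 0 to 3. Endothelial CDH5 was at 10.8 to 13.1, PECAM1 at 5.57 to 7.39 and VWF at 6.83 to 8.05, and fibroblast PDGFRB had 5 to 33 reads and COL1A1 15 to 1056. Some of these markers moved with treatment at 10 µM: COL1A1 rose by 2.60 (limma adjusted p = 0.0218) and KRT7 by 1.13 (adjusted p = 0.0368), and KRT8 (-0.83, adjusted p = 0.00519), KRT18 (-0.73, adjusted p = 0.0288) and VWF (-0.84, adjusted p = 0.00558) fell. PAX8 had a mean of 12.70 in vehicle and a higher one of 13.40 at 10 µM, and VIM a lower one (18.13 and 17.20). Test values for PAX8 and VIM are not given here. The part of these markers in the results below was not tested. MUC16, CD3E and DCN were not analysed here. The libraries of number 6 stood apart on a list of G2/M genes (24 measured): the list's median value was 11.30 in vehicle 6 against 8.89 and 8.60 in vehicle 8 and 11, and it was 9.35, 9.30 and 9.07 at 10 µM. Without number 6 and with label number as a block, 23 of the 24 genes rose at 1 µM, 18 at 5 µM and 16 at 10 µM, and 0 fell. That fit called 15.2%, 30.6% and 36.3% of all genes at these doses. The part of the G2/M genes in the results below was not tested, and values without number 6 are given for the members whose call changes with it. Libraries of a number deviated together, so results that change when label number enters as a block are given both ways.

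The 10 genes spanned a wide range of levels in vehicle. Per kb of merged exons, CCN1 had the highest recovered normalised count (5497 ± 1223, mean ± SD, n = 3), followed by CCN2 (2454 ± 687), YAP1 (1388 ± 96.8) and AMOTL2 (1211 ± 49.4). TEAD1 (675 ± 203), LATS2 (648 ± 91.8) and AMOTL1 (559 ± 46.2) came next, then AJUBA (403 ± 33.8) and WWTR1 (331 ± 101). TEAD1 and LATS2, LATS2 and AMOTL1, and AJUBA and WWTR1 overlapped in their ranges, and the other neighbours in this order did not. ANKRD1 was last, with 0.860 ± 0.842 per kb.

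Members moved in different directions with treatment, and the share of them called at 10 µM was close to that of all genes. AMOTL2 and TEAD1 rose, CCN1 was lower in every pair of libraries with the same number, and YAP1, WWTR1, LATS2, AJUBA and CCN2 passed the test at no dose, with or without label number as a block. In bulk RNA, fewer cells that express a gene and less of its RNA per cell cannot be told apart. At 1 µM 1 of the 9 tested genes was called (limma, Benjamini-Hochberg adjusted p under 0.05 over 17767 genes), 11.1% against 1.80% of all genes. With the label number as block it was again 1, 11.1% against 12%. At 5 µM 2 were called, 22.2% against 15.1% of all genes, and 4 with the block, 44.4% against 30.6%. At 10 µM the counts were again 2, 22.2% against 22.6%, and 4 with the block, 44.4% against 38.4%. With the block at 5 and at 10 µM the 4 genes were TEAD1, AMOTL1 and AMOTL2, all higher, and CCN1, lower. The 9 genes had a median difference of 0.07 at 1 µM, of 0.07 at 5 µM and of 0.03 at 10 µM, and all genes one of 0.00 at each dose. The 3 comparisons share their vehicle libraries.

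Between doses no member was called. For 5 µM against 1 µM 0.310% of all genes were called (5.19% with the block). There 1 member had an unadjusted limma p under 0.05, as did 1792 of all 17767 genes. For 10 µM against 5 µM 0% of all genes were called (0.00563% with the block). Under 0.05 unadjusted were again 1 member and 601 of all genes. For 10 µM against 1 µM 4.71% of all genes were called, and 3 members and 3751 of all genes were under 0.05 unadjusted. With the block that last comparison called TEAD1 and AMOTL2 (higher) and CCN1 (lower), against 20.9% of all genes. A slope over the 4 dose ranks was called for TEAD1 (0.24 per rank, adjusted p = 0.00307), AMOTL2 (0.17, adjusted p = 5.48e-04) and AMOTL1 (0.07, adjusted p = 0.0451), against 26.5% of all genes, and with the block also for CCN1 (-0.26, adjusted p = 4.42e-05), against 38.6%.

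**Figure D2:**
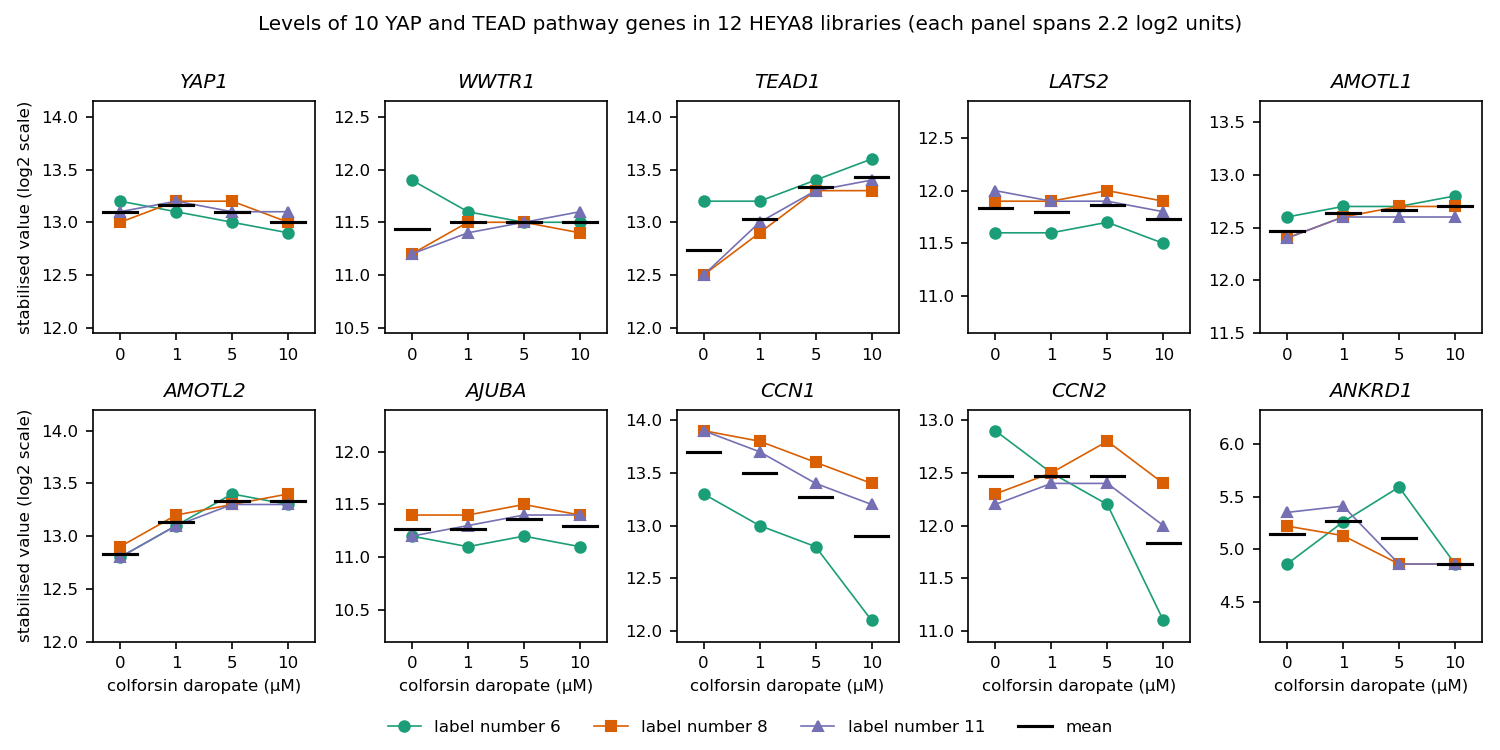
Stabilised value of each of the 10 genes in the 12 libraries by dose of colforsin daropate (0 is vehicle), with 1 line and marker per label number and a black bar at the mean of each group. AMOTL2 climbs in all 3 label numbers, from 12.8 to 12.9 in vehicle to 13.3 to 13.4 at 10 µM, while CCN1 descends in all 3 and CCN2 descends steeply in number 6, from 12.9 to 11.1.

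YAP1 (ENSG00000137693.14, GRCh38 chromosome 11, 102110461 to 102233423, plus strand) encodes the coactivator the pathway is named for. Its values in libraries 6, 8 and 11 were 13.2, 13 and 13.1 in vehicle, 13.1, 13.2 and 13.2 at 1 µM, 13, 13.2 and 13.1 at 5 µM, and 12.9, 13 and 13.1 at 10 µM. The groups overlapped at every dose and all 12 values lay within 0.3. The difference from vehicle was 0.07 ± 0.08 at 1 µM (adjusted p = 0.758), 0.00 at 5 µM (adjusted p = 1.00) and -0.10 at 10 µM (adjusted p = 0.426, with the block 0.309). An antisense gene, ENSG00000254422, shares 628 bases (9.97%) of the YAP1 exons and was at 10.4 to 10.8, at most 1725 recovered normalised counts. No source used here gives the strand setting of the counting, so the level of YAP1 is uncertain by an amount that was not determined.

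WWTR1 (ENSG00000018408.15, chromosome 3, 149517235 to 149736714, minus strand) encodes TAZ. It was at 11.9, 11.2 and 11.2 in vehicle libraries 6, 8 and 11, at 11.6, 11.5 and 11.4 at 1 µM, at 11.5 in all 3 at 5 µM, and at 11.5, 11.4 and 11.6 at 10 µM. Vehicle 6 was the highest of the 12 libraries and vehicle 8 and 11 were the lowest, so every treated value lay between the vehicle values. Over all 3 numbers the difference was 0.07 ± 0.15 at each dose (adjusted p = 0.891, 0.833 and 0.802). Number 6 went down by 0.40 at 10 µM, and numbers 8 and 11 went up by 0.20 and 0.40. Without number 6 and with the block WWTR1 was higher by 0.25 at 1 µM (adjusted p = 0.0851), by 0.30 at 5 µM (adjusted p = 0.0327, with 30.6% of 17141 genes called in that fit) and by 0.30 at 10 µM (adjusted p = 0.0289, with 36.3% called). The slope over dose rank passed in that fit too (0.10 per rank, adjusted p = 0.0316, with 33.8% called). Leaving out vehicle 6 alone also gave a difference of 0.30 at 5 µM (adjusted p = 0.0260) and at 10 µM (adjusted p = 0.0199). Vehicle 6 is the library with the highest G2/M median, 11.30, and whether the 2 go together was not tested. The antisense gene WWTR1-AS1 shares 795 bases (9.45%) of the WWTR1 exons and had at most 161 recovered normalised counts. WWTR1 carries the same kind of uncertainty as YAP1. YAP1 made up 76.9% to 83.5% of the summed YAP1 and WWTR1 counts per kb in vehicle and 78.1% to 80.4% at 10 µM.

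TEAD1 (ENSG00000187079.20, chromosome 11, 12674591 to 12944483, plus strand) encodes a TEAD factor, the DNA-binding partner of YAP and TAZ. Its values were 13.2, 12.5 and 12.5 in vehicle libraries 6, 8 and 11, 13.2, 12.9 and 13 at 1 µM, 13.4, 13.3 and 13.3 at 5 µM, and 13.6, 13.3 and 13.4 at 10 µM. All 6 libraries at 5 and 10 µM lay above all 3 vehicle libraries, and the gap was narrow because vehicle 6 was 0.7 above the other vehicle libraries. TEAD1 rose by 0.60 ± 0.17 at 5 µM (adjusted p = 0.0314, with the block 7.84e-04), 1.48-fold in recovered counts, and by 0.70 ± 0.17 at 10 µM (adjusted p = 0.0108, with the block 1.79e-04), 1.59-fold. At 1 µM the difference was 0.30 (adjusted p = 0.421, with the block 0.0741), and it passed the test when number 6 was left out (0.45, adjusted p = 0.00516 with the block, where 15.2% of all genes were called) or vehicle 6 alone (0.53, adjusted p = 0.0220). The step from 1 to 5 µM passed as well without number 6 and with the block (0.35, adjusted p = 0.0226, with 4.23% called). By label number the rise at 10 µM came to 0.40 (6), 0.80 (8) and 0.90 (11). Recovered normalised counts were 6940 ± 2089 in vehicle and 11046 ± 1193 at 10 µM (n = 3 each).

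In the fit without the block the call of TEAD1 at 5 µM needed all of the libraries it compares except vehicle 6. Dropping vehicle 8 gave adjusted p = 0.124, dropping vehicle 11 gave 0.120, and dropping 5 µM library 6, 8 or 11 gave 0.0911, 0.0742 or 0.0722. At 10 µM it was lost without number 8 (adjusted p = 0.159) and without number 11 (adjusted p = 0.181). With the block the 5 µM call was lost without number 8 (adjusted p = 0.0799) or 11 (0.0667). In each of these fits TEAD1 remained higher, by 0.48 to 0.65. With all libraries kept, the 5 µM call was also lost with quantile normalisation (0.56, limma adjusted p = 0.0585). Fitting 2 groups only lost it at 5 µM (0.60, limma adjusted p = 0.101) and at 10 µM (0.70, limma adjusted p = 0.0585).

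The other TEAD genes went different ways. TEAD4 fell, from 10.5, 10.1 and 9.94 in vehicle libraries 6, 8 and 11 to 8.94, 9.23 and 9.33 at 10 µM, a difference of -1.01 ± 0.18 (adjusted p = 0.00224). All treated values of TEAD4 at 10 µM were below all vehicle values. TEAD2 was at 9.39, 8.99 and 9.06 in vehicle and at 9.75, 9.34 and 9.67 at 10 µM (0.44, adjusted p = 0.0639, blocked adjusted p = 0.00150), and TEAD3 differed by 0.09 (adjusted p = 0.710). Per kb of exons, TEAD1 made up 49.9%, 42.6% and 43.9% of the summed TEAD1 to TEAD4 counts in vehicle libraries 6, 8 and 11, and 67.2%, 62.8% and 61.7% at 10 µM. TEAD4 made up 33.6%, 34.9% and 32.1% in vehicle and 10.7%, 15.4% and 15.2% at 10 µM, so the shares of both genes were apart between vehicle and 10 µM in all 3 numbers. At 1 µM TEAD1 had a share of 52.9% ± 2.46 and at 5 µM of 61.9% ± 1.32 (SD, n = 3 each). The sum itself was 1467 ± 308 per kb in vehicle and 1680 ± 119 at 10 µM, and these ranges overlapped.

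**Figure D3:**
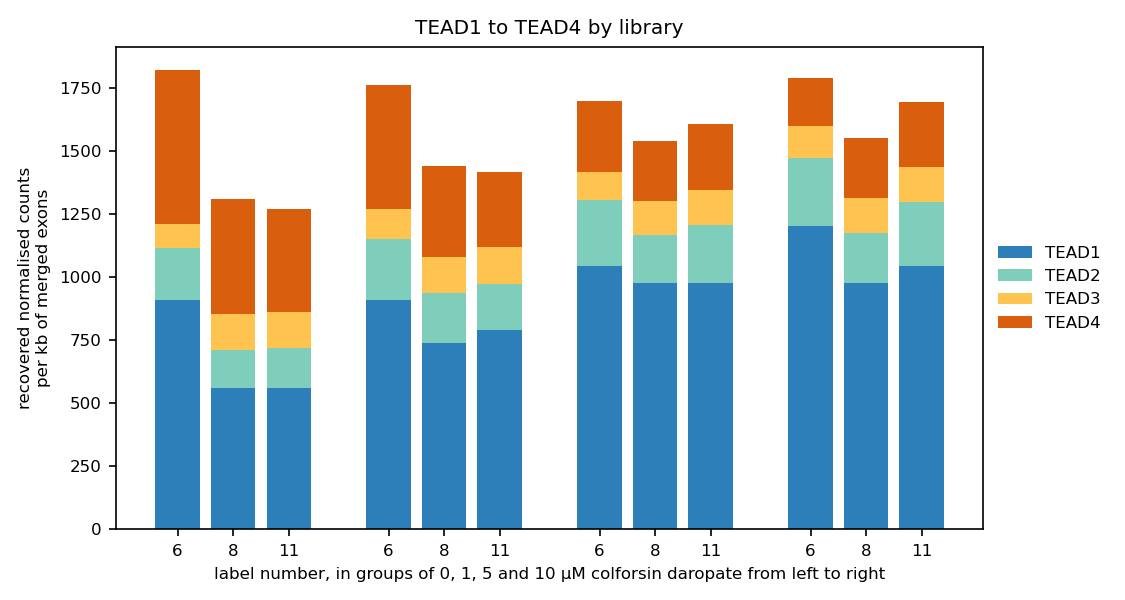
Recovered normalised counts per kb of merged exons of TEAD1 to TEAD4, stacked by library, with the libraries of label numbers 6, 8 and 11 side by side at 0, 1, 5 and 10 µM. The TEAD1 part grows from 42.6% to 49.9% of the stack in vehicle to 61.7% to 67.2% at 10 µM, and the TEAD4 part shrinks from 32.1% to 34.9% to 10.7% to 15.4%.

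The VGLL genes encode cofactors that bind TEAD in place of YAP and TAZ. VGLL3 fell from 10.9, 10.5 and 10.4 in vehicle libraries 6, 8 and 11 to 9.92, 9.70 and 9.62 at 10 µM (-0.85 ± 0.14, adjusted p = 0.00145), without overlap. VGLL4 differed by 0.13 (adjusted p = 0.297). Of the 5 tested genes of the list of other TEAD and VGLL factors, 2 fell and 0 rose at 5 and at 10 µM, where 15.1% and 22.6% of all genes were called, and with the block TEAD2 was added as a rise (30.6% and 38.4% of all genes). Without number 8 none of this list was called at either dose, and without number 11 none at 5 µM, with the shares of all genes in those fits not given here. VGLL1 and VGLL2 were not analysed here.

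LATS2 (ENSG00000150457.9, chromosome 13, 20973032 to 21061547, minus strand) encodes a kinase that inhibits YAP and TAZ, and is itself known as a YAP target. It was at 11.6, 11.9 and 12 in vehicle libraries 6, 8 and 11, at 11.6, 11.9 and 11.9 at 1 µM, at 11.7, 12 and 11.9 at 5 µM and at 11.5, 11.9 and 11.8 at 10 µM. Number 6 was the lowest of its group at each dose, so the numbers differed more than the doses. Against vehicle LATS2 differed by -0.03 at 1 µM, by 0.03 at 5 µM and by -0.10 ± 0.14 at 10 µM (adjusted p = 0.937, 0.906 and 0.651, with the block 0.201 at 10 µM).

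AJUBA (ENSG00000129474.16, chromosome 14, 22971174 to 22982642, minus strand) encodes a LIM-domain scaffold that restrains LATS kinases. Its values were 11.2, 11.4 and 11.2 in vehicle, 11.1, 11.4 and 11.3 at 1 µM, 11.2, 11.5 and 11.4 at 5 µM, and 11.1, 11.4 and 11.4 at 10 µM. All groups overlapped, and the difference at 10 µM was 0.03 ± 0.11 (adjusted p = 0.866, with the block 0.713). Differences at 1 and 5 µM were 0.00 and 0.10.

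AMOTL2 (ENSG00000114019.15, chromosome 3, 134355874 to 134375479, minus strand) encodes an angiomotin-like junction protein that binds YAP and holds it outside the nucleus, and its gene is also a known YAP target. Its values in libraries 6, 8 and 11 were 12.8, 12.9 and 12.8 in vehicle, 13.1, 13.2 and 13.1 at 1 µM, 13.4, 13.3 and 13.3 at 5 µM, and 13.3, 13.4 and 13.3 at 10 µM. The lowest treated library lay above the highest vehicle library at every dose, and the libraries of a group lay within 0.1 of each other. AMOTL2 rose by 0.30 ± 0.07 at 1 µM (adjusted p = 0.0484, with the block 0.00555), by 0.50 ± 0.07 at 5 µM (adjusted p = 7.49e-04) and by 0.50 ± 0.07 at 10 µM (adjusted p = 4.46e-04). In recovered counts these were 1.23-fold, 1.42-fold and 1.42-fold, from 7244 ± 296 in vehicle to 10269 ± 418 at 10 µM. The rise at 10 µM was 0.50 in each of the 3 numbers. At 10 µM AMOTL2 was called under all 25 alternatives tried, at 5 µM under 23, the exceptions being the fits without number 8 (adjusted p = 0.0650) and without number 11 (0.0694). The call at 1 µM was close to the threshold and was lost when any single library of the 12 was left out (adjusted p = 0.0501 to 0.196), with the difference at 0.27 to 0.33.

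AMOTL1 (ENSG00000166025.18, chromosome 11, 94706431 to 94876753, plus strand) encodes a related junction protein. It was at 12.6, 12.4 and 12.4 in vehicle, 12.7, 12.6 and 12.6 at 1 µM, 12.7, 12.7 and 12.6 at 5 µM, and 12.8, 12.7 and 12.6 at 10 µM. The treated values were at or above the highest vehicle value, vehicle 6, which they touched. The difference was 0.17 ± 0.08 at 1 µM (adjusted p = 0.340, with the block 0.0727), 0.20 at 5 µM (adjusted p = 0.118, blocked adjusted p = 0.0168) and 0.23 at 10 µM (adjusted p = 0.0546, with the block 0.00553). It was positive in all 3 numbers at each dose. Without number 6 and with the block AMOTL1 passed the test at 1 µM too (0.20, adjusted p = 0.0397). The blocked calls at 5 and 10 µM were lost without number 8 (adjusted p = 0.184 and 0.0791) and without number 11 (adjusted p = 0.129 and 0.0532). The antisense gene ENSG00000256469 shares 496 bases (4.94%) of the AMOTL1 exons and had at most 519 recovered normalised counts. AMOTL1 carries the uncertainty of strand as well. The third angiomotin gene, AMOT, was not analysed here.

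**Figure D4:**
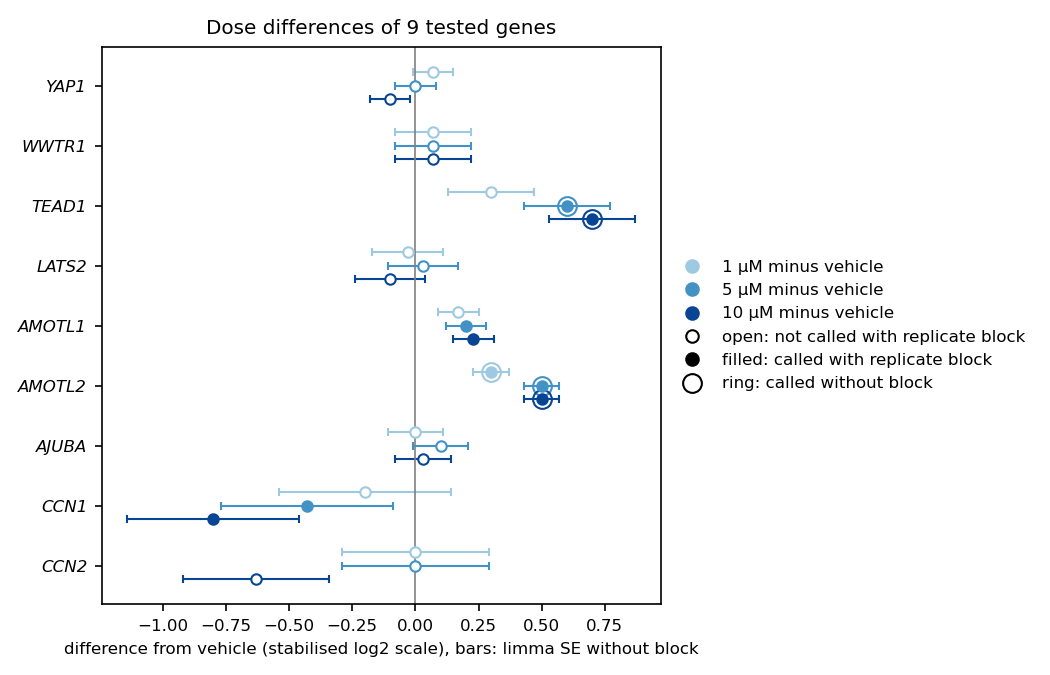
Difference from vehicle of the 9 tested genes at 1, 5 and 10 µM on the stabilised log2 scale, with the limma standard error of the fit without block as bars. Filled points were called with label number as block, open points were not, and a ring marks a call without the block, which only TEAD1 and AMOTL2 have.

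CCN1 (ENSG00000142871.18, chromosome 1, 85580761 to 85583962, plus strand) encodes a secreted matricellular protein and is a standard target of YAP and TEAD. Its values in libraries 6, 8 and 11 were 13.3, 13.9 and 13.9 in vehicle, 13, 13.8 and 13.7 at 1 µM, 12.8, 13.6 and 13.4 at 5 µM, and 12.1, 13.4 and 13.2 at 10 µM. Number 6 was lowest at each dose, and the ranges of vehicle and 10 µM overlapped, since vehicle 6 lay below 10 µM library 8. Within each number every step of dose was downward. By label number the difference at 10 µM came to -1.20 (6), -0.50 (8) and -0.70 (11). Without the block CCN1 did not pass the test at 1 µM (-0.20 ± 0.34, adjusted p = 0.839), 5 µM (-0.43, adjusted p = 0.451) or 10 µM (-0.80, adjusted p = 0.117). With the block it fell at 5 µM (adjusted p = 0.00804) and at 10 µM (adjusted p = 8.82e-05), and not at 1 µM (adjusted p = 0.243). The G2/M median of number 6 went from 11.30 in vehicle to 9.35 at 10 µM, and its part in the CCN1 difference of that number was not tested. Without number 6 and with the block the fall was 0.40 at 5 µM (adjusted p = 0.00681) and 0.60 at 10 µM (adjusted p = 0.00154). The blocked call at 5 µM was lost without number 8 (-0.50, adjusted p = 0.0596) and without number 11 (-0.40, adjusted p = 0.158), and that at 10 µM was kept in both (adjusted p = 0.00758 and 0.0152). Recovered normalised counts were 13495 ± 3003 in vehicle and 8145 ± 3376 at 10 µM (0.604-fold).

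CCN2 (ENSG00000118523.6, chromosome 6, 131948176 to 131951373, minus strand), whose promoter with 3 TEAD cores is printed above, encodes connective tissue growth factor, a close relative of CCN1 and the other standard target. Its values were 12.9, 12.3 and 12.2 in vehicle libraries 6, 8 and 11, 12.5, 12.5 and 12.4 at 1 µM, 12.2, 12.8 and 12.4 at 5 µM, and 11.1, 12.4 and 12 at 10 µM. Number 6 held both the highest and the lowest of the 12 values, vehicle and 10 µM, and numbers 8 and 11 stayed between 12 and 12.8. The difference was 0.00 at 1 µM (adjusted p = 1.00), 0.00 at 5 µM (adjusted p = 1.00) and -0.63 ± 0.29 at 10 µM (adjusted p = 0.138, with the block 0.0691). By label number it came to -1.80 (6), 0.10 (8) and -0.20 (11) at 10 µM, which leaves a mean of -0.05 when number 6 is left out. Without number 6 and with the block CCN2 was higher at 5 µM (0.35, adjusted p = 0.0453). Leaving out 10 µM library 8 alone gave a call at 10 µM (-0.92, adjusted p = 0.0427). The G2/M list moved in number 6 as given for CCN1, and its part was not tested here either. The antisense gene ENSG00000227220.1 shares 195 bases (8.34%) of the CCN2 exons but had at most 14.4 recovered normalised counts in any library.

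The distance between the CCN genes depended on the label number. CCN1 stood above CCN2 by 0.40, 1.60 and 1.70 on the stabilised scale in vehicle libraries 6, 8 and 11, and by 1.00, 1.00 and 1.20 at 10 µM. The lead of CCN1 grew in number 6 and shrank in numbers 8 and 11. Per kb, CCN1 had 1.26, 2.91 and 3.12 times the count of CCN2 in vehicle and 1.93, 1.92 and 2.21 times at 10 µM.

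ANKRD1 (ENSG00000148677.7, chromosome 10, 90912096 to 90921276, minus strand) encodes an ankyrin-repeat protein of muscle and heart and is widely used as a YAP target. It was close to absent in these cells, with 20 reads in all 12 libraries together, among 457 megareads on genes. Libraries 6, 8 and 11 had 0, 2 and 4 reads in vehicle, 2, 1 and 4 at 1 µM, 7, 0 and 0 at 5 µM, and 0 in all 3 at 10 µM. The sums were 6, 7, 7 and 0 reads in groups of 110 to 124 megareads, and a sum of 0 allows up to 3 reads. A change was not detectable at this depth, and no fold is given.

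The wider pathway was read from lists of genes that are not among the 10. Of 29 tested Hippo kinases and upstream regulators, 8 rose, 5 fell and 16 did not pass the test at 10 µM (9 and 10 with the block), with a median difference of 0.03. That is 44.8% of the list against 22.6% of all genes (with the block 65.5% against 38.4%). The 5 µM libraries had 5 genes that rose and 2 that fell (6 and 7 with the block), 24.1% against 15.1% (44.8% against 30.6%). At 1 µM 2 rose and 1 fell (3 and 2 with the block), 10.3% against 1.80% (17.2% against 12%). Leaving out number 8 brought the calls at 10 µM from 13 to 3 and leaving out number 11 to 4, and without number 6 there were 19. Leaving out vehicle 8, vehicle 11 or 10 µM library 11 alone left 8. The shares of all genes called in these left-out fits are not given here. Among the core cascade, SAV1, the scaffold of the upstream kinases, fell from 10.8 in all 3 vehicle libraries to 10.4, 10.2 and 10.4 at 10 µM (-0.47 ± 0.10, adjusted p = 0.00502). STK3, a kinase that phosphorylates LATS kinases, fell by 0.33 at 10 µM (adjusted p = 0.0152), from 11, 11.1 and 11.2 to 10.7, 10.8 and 10.8. STK4, the paralogue of STK3, passed with the block alone (-0.27, adjusted p = 0.00179, without the block 0.193). MOB1A, a coactivator of LATS kinases, rose by 0.27 (adjusted p = 0.0328), from 13.8, 13.6 and 13.7 to 14, 13.9 and 14. LATS1 differed by 0.17 (adjusted p = 0.199) and NF2, a membrane-associated activator of the cascade, by 0.27 (adjusted p = 0.204), and NF2 passed without number 6 and with the block (0.37, adjusted p = 0.0163). STK4, MOB1A, LATS1 and NF2 are named here after their values were seen.

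FRMD6, a FERM-domain protein upstream of the kinases, had the largest fall of the list. It went from 13, 12.8 and 12.8 in vehicle to 12.5, 12.4 and 12.4 at 1 µM, and to 11.9, 12.1 and 12.2 at 10 µM, and fell at all 3 doses (-0.43, -0.60 and -0.80 ± 0.09, adjusted p = 0.0321, 0.00124 and 1.31e-04). WTIP, a relative of AJUBA, fell by 0.57 at 10 µM (adjusted p = 0.0451). The largest rises were in SRC, a tyrosine kinase that can phosphorylate YAP, and in the casein kinase genes CSNK1D and CSNK1E, whose kinases take part in the degradation of YAP and TAZ. SRC was at 11.4, 11.1 and 11 in vehicle and at 12.1 in all 3 libraries at 10 µM, and rose at each dose (0.63, 0.83 and 0.93 ± 0.10, adjusted p = 0.00959, 3.87e-04 and 1.10e-04). CSNK1D rose at each dose, by 0.43, 0.67 and 0.77 ± 0.08 (adjusted p = 0.0215, 4.08e-04 and 9.63e-05). CSNK1E rose by 0.53 at 5 µM (adjusted p = 0.0447) and 0.77 ± 0.16 at 10 µM (adjusted p = 0.00552). TAOK2, a kinase upstream of STK3 and LATS kinases, rose by 0.37 at 10 µM (adjusted p = 0.00415).

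Other YAP and TAZ targets, 17 genes of a signature beside CCN1, CCN2, ANKRD1, AMOTL2 and LATS2, also went both ways. At 10 µM 7 rose, 2 fell and 8 did not pass the test (10 and 4 with the block), with a median difference of 0.27 against 0.00 for all genes. That is 52.9% of the list against 22.6% of all genes (with the block 82.4% against 38.4%). The 5 µM libraries had 6 genes that rose and 2 that fell (8 and 4 with the block), 47.1% against 15.1% (70.6% against 30.6%). At 1 µM none was called, against 1.80% of all genes (with the block 3 rose and 1 fell, 23.5% against 12%). At that dose 4 of the 17 genes had an unadjusted limma p under 0.05, as did 2749 of all 17767 genes. Without number 8 the calls at 10 µM went from 9 to 3 and without number 11 to 2, and without number 6 there were 14. For these left-out fits, too, the shares of all genes are not given here. IGFBP3, a carrier of insulin-like growth factors, had the largest rise, from 9.72, 8.37 and 8.27 in vehicle to 13.1, 11.8 and 11.9 at 10 µM (3.48 ± 0.54, adjusted p = 0.00104). TGFB2, a growth factor of the TGF-beta family, rose from 5.53, 5.30 and 5.50 to 7.34, 6.68 and 6.57 (1.42 ± 0.24, adjusted p = 0.00149), that is from 4.91 ± 1.96 to 69.1 ± 34.7 recovered normalised counts. Every vehicle value of TGFB2 was less than 1 above the floor. It therefore entered the tests only through treated libraries, and its call is no support beyond the values themselves. IGFBP3 and TGFB2 were both higher in number 6 than in numbers 8 and 11 at 10 µM. CCDC80, a matrix protein gene, rose by 1.00 (adjusted p = 0.0354) and NUAK2, a kinase gene, by 0.78 (adjusted p = 0.00278).

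The 2 targets that fell in the fit without the block were AXL and FJX1. AXL, a receptor tyrosine kinase gene, went from 14.3, 14.5 and 14.5 in vehicle to 13.6, 13.8 and 13.8 at 10 µM, a fall of 0.70 in each number (-0.70 ± 0.09, adjusted p = 2.46e-04). FJX1, which encodes a relative of the Drosophila four-jointed protein, differed by -0.69 ± 0.13 (adjusted p = 0.00329). With the block GADD45A, a stress-response gene, was also lower (-0.60, adjusted p = 1.82e-05, without the block 0.187), and F3, the gene of tissue factor, was higher (1.47, adjusted p = 7.19e-06, without the block 0.0702). F3 was at 12.2, 10.5 and 10.9 in vehicle libraries 6, 8 and 11 and at 13.5, 12 and 12.5 at 10 µM, and it was higher in each number. GADD45A and F3 are named here after their values were seen.

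**Figure D5:**
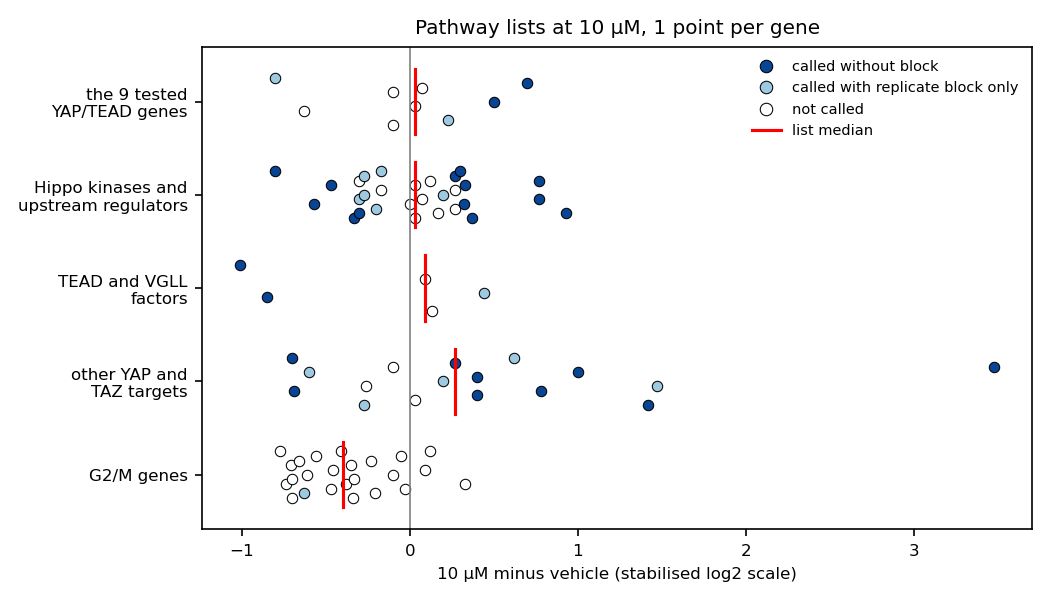
Difference between 10 µM and vehicle of each tested gene, 1 point per gene, for the 9 members, the Hippo kinases and upstream regulators, the other TEAD and VGLL factors, the other YAP and TAZ targets and the G2/M genes, with the median of each list as a red line. The medians are 0.03, 0.03, 0.09, 0.27 and -0.40, and dark points, called without the block, lie on both sides of 0 in the regulators and in the targets.

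No G2/M gene was called by limma without the block at 1, 5 or 10 µM, against 1.80%, 15.1% and 22.6% of all genes. At 10 µM 0 were under an unadjusted limma p of 0.05, against 6186 of all 17767 genes. With the block 1 fell at 10 µM, against 38.4% of all genes called. Without number 6 and with the block, 16 rose and 0 fell at that dose, against 36.3% of all genes called. The median difference was then 0.41 in place of -0.40. The spread within vehicle, from 8.60 to 11.30 for the list median, was larger than the median difference of -0.40 at 10 µM.

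The members differed in which others they resembled across the 12 libraries. As a description over libraries that share doses and numbers, TEAD1 correlated most with AMOTL1 (Pearson r = 0.91) and with AMOTL2 (r = 0.74), CCN1 most with LATS2 (r = 0.85), and CCN2 most with YAP1 (r = 0.77). CCN1 and CCN2 had r = 0.65, and TEAD1 and CCN1 r = -0.79. Over all tested genes that are no members, the closest to CCN1 were OSBPL6, ADAMTS1, ST6GALNAC3, TRIM25 and NOP56 (each r = 0.98). Closest to CCN2 were METAP1D and ENSG00000259985 (each r = 0.94), ENSA and RAN (each 0.91) and INTS7 (0.89). Closest to YAP1, which moved within 0.3, were SSBP1, DENR and CDC42EP3-AS1 (each r = 0.93) and TMX1 and HMGN1 (each 0.92).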

How the data were processed

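Per the labels' protocols, total RNA of HEYA8 cultures went through ribosomal depletion and TruSeq library preparation, giving 12 libraries. The deposited table holds variance-stabilised values on a log2 scale that the authors made. DESeq2 and GRCh38 (hg38) appear by name in the submitters' processing notes. Aligner, counter, strand setting, annotation and gene filter are not given in the sources used here. Of 21211 table entries, 4 name no gene (no feature 36.2% to 41.4% of reads, ambiguous 2.40% to 2.94%, not aligned 0.793% to 1.82%, not unique 19.3% to 25.6%) and stayed out of the tests. Symbols were found for 21166 of 21207 genes (99.8%), and positions come from GENCODE 29, matched by gene ID without its version.

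Counts and depth were recovered from the steps between low values. With the fitted depths 97.1% of 67401 low values were whole reads within 0.005, against 23.2% to 27.6% with the depth of another library. Levels per kb used the merged exons of GENCODE 29.

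The main test was a limma 3.58.1 (R 4.3.3) linear model with a variance trend on the stabilised values of all 12 libraries and 4 groups, two-sided, adjusted by Benjamini-Hochberg over the 17767 genes whose value exceeded the floor by more than 1 in 3 or more libraries. Contrasts were each dose against vehicle and the doses against each other, and a slope over dose rank was fitted. The fit was tested on simulated data with independent libraries, where it called 37.9% to 42.3% of genes with a true change of 0.5. With a true change of 1.0 it called 80.0% to 89.0%. Deviations shared by same-numbered libraries were not simulated. Same-numbered libraries deviated together from their group means (r = 0.32 to 0.78 in 18 of 18 pairs, -0.71 to 0.57 in 36 pairs of different numbers), so label number was taken to pair them, a pairing that comes from this check and not from the labels. Alternatives were the replicate block, a stricter filter and none, quantile normalisation, array weights, voom on recovered counts, each library or number left out, and 2 groups only. Leaving out a number together with the block was added after seeing the data. The members and gene lists were chosen with earlier results of these data known. Named genes were the 10 members, up to 4 called rises and 4 called falls per list at 10 µM, and the 5 genes most correlated with CCN1, CCN2 and YAP1, and other list genes were named after their values were seen. Motifs were searched on both strands.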

Additional observations from a re-analysis of the deposited data

How the results depend on the processing

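No member's difference that was called in the fit without the block changed direction under an alternative. The number of members called depended on the setting. With the replicate block it was 4 instead of 2 at 5 µM, 4 instead of 2 at 10 µM, and 3 instead of 0 between doses, and it stayed at 1 at 1 µM. With array weights it was 5 instead of 1 at 1 µM, 4 at 5 µM, 5 at 10 µM, 1 between doses and 5 instead of 3 over dose rank. Without a filter it was 0 at 1 µM, and with quantile normalisation 0 at 1 µM and 1 at 5 µM. Fitting 2 groups alone gave 0 at 1 µM, 1 at 5 µM and 1 at 10 µM. With libraries or numbers left out, with or without the replicate block, the counts ran from 0 to 3 at 1 µM, 0 to 6 at 5 µM, 1 to 5 at 10 µM, 0 to 3 between doses and 1 to 5 over dose rank. The highest of these left-out counts came without number 6. The share of all genes called changed with the setting too, at 1 µM from 1.80% without the block to 12% with it. For array weights, 2 groups alone and most left-out fits that share is not given here. These counts therefore do not show a trait of the members. The stricter filter and voom on recovered counts moved no count by over 1.5 times. The counts of the gene lists moved by over 1.5 times in 38 of 180 fits with a library or number left out, in 13 of 36 with a number left out and the block, in 9 of 12 with array weights, in 6 of 12 with the replicate block and in 5 of 12 with 2 groups alone, and in 0 of 12 each without a filter, with the stricter filter, with quantile normalisation and with voom. The cause of these shifts was not tested. At 10 µM CCN1 was called under 6 of 25 alternatives, with a difference of -1.05 to -0.40, and CCN2 under 1, with -1 to -0.05. The block changed no other member's call than those given for AMOTL1 and CCN1 and for TEAD1, AMOTL2 and CCN1 between 10 and 1 µM. ANKRD1, at 0 to 7 reads per library, is limited by depth, and differences of abundant members by the rounding step of 0.1.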
